A study of Drosophila melanogaster with 4 samples.

Results

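Histone H1 regions on the euchromatic left arm of chromosome 3 (3L) are described here: all rows of 3 deposited region lists that lie on 3L and end before position 22500000 of genome Release 5. The arm sequence is 24.5 Mb long, counted from the telomere towards the centromere, so the part described spans 22.5 Mb and leaves out the sequence next to the centromere. The members were chosen by position alone and number 654 of the 3779 regions of ChIP replicate 1 (17.3%), 754 of the 4665 of ChIP replicate 2 (16.2%) and 3382 of the 18812 of a combined table of the series (18.0%). H1 was measured by ChIP-seq in fruit fly larvae (Drosophila melanogaster) of the wild-type strain Oregon-R in their last instar, in 2 ChIP libraries; 2 inputs of the same strain and stage were not analysed here. The labels name no tissue, so the cells used are not known here. A region bound in a few cells and one bound weakly in many cannot be told apart. Nothing in the labels says that the replicates came from separate cultures or collections, and their spread may be technical. Read depth is unknown for these lists.

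H1 is the linker histone. It sits where DNA enters and leaves the nucleosome, and it helps to fold nucleosome arrays into compact chromatin. In flies, loss of H1 disturbs heterochromatin and the banded structure of the polytene chromosomes of larval salivary glands, and active gene starts are known to carry less H1 than their surroundings. A region in these lists is a stretch that the authors listed as enriched in the ChIP, so a gap means that no region was listed there and not that H1 was absent. Positions are on Release 5, for which no gene annotation was used here, so regions are given by position and no gene is assigned to them.

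The last member before the limit was 22491019 to 22492621 in replicate 1 (score 0.56), 22495257 to 22497368 in replicate 2 (0.65) and 22489114 to 22497798 in the combined table (0.44). The first rows past it began at 22504825 (0.58), 22501335 (0.54) and 22499048 (0.43), the last of these lying across the limit, and they were not counted. Beyond the limit, replicate 1 listed 41 further regions of 3L and replicate 2 listed 105, with 275 in the combined table, and 3.57%, 9.64% and 28.2% of that proximal sequence was covered. The replicates therefore differed more in the proximal remainder than in the euchromatic part, where coverage was 4.84% and 5.69%.

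On euchromatic 3L the listed H1 regions were short and numerous, and they covered about as much sequence in either replicate. Replicate 1 covered 1.09 Mb and replicate 2 covered 1.28 Mb, a mean of 5.27 ± 0.60% of the 22.5 Mb (SD, n = 2), with 704 ± 70.7 regions (SD, n = 2). The combined table covered 6.75 Mb, or 30.0%. Per Mb, replicate 1 listed 29.1 regions, replicate 2 listed 33.5 and the combined table listed 150.3.

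Lengths were closely packed at the low end. The middle 50% of regions measured 1393 to 1801 bp in replicate 1 (median 1529 bp), 1398 to 1869 bp in replicate 2 (median 1559 bp) and 1207 to 2269 bp in the combined table (median 1593 bp). The shortest were 1302, 1301 and 1001 bp, and the longest 4852, 5155 and 17849 bp. Regions of 5 kb or more numbered 0 in replicate 1 and 1 in replicate 2 on 3L, while the combined table held 121.

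The authors' score of a region was read as a log2 ratio. Replicate 1 had a median score of 0.52, replicate 2 of 0.55 and the combined table of 0.38, or ratios of 1.43, 1.47 and 1.30. The middle 50% of regions spanned ratios of 1.39 to 1.47, 1.42 to 1.52 and 1.27 to 1.33. The middle 50% of scores was thus narrow within each list, while all combined scores ran from 0.19 to 2.83. The threshold for listing a region is not stated, nor what the ratio was taken against. The size of H1 enrichment on the arm was therefore not judged. Longer regions tended to score higher, with Spearman's rho of 0.26 over the 654 regions of replicate 1, 0.33 over the 754 of replicate 2 and 0.13 over the 3382 combined regions; regions share their library, so these are descriptions.

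Euchromatic 3L was covered less than the other autosomal arms and more than the X in both replicates. Replicate 1 covered 4.84% of 3L, against 6.26% of 2L, 2R and 3R together and 2.54% of the X. Replicate 2 covered 5.69% of 3L, against 7.40% of those arms and 2.80% of the X. The ratio of 3L to the other autosomal arms was 0.773 and 0.768 in the 2 replicates, a mean of 0.771 ± 0.00338 (SD, n = 2), and the ratio to the X was 1.97 ± 0.0877 (SD, n = 2). Against single arms the ratio was 0.861 ± 0.0287 for 2L, 0.835 ± 0.0101 for 2R and 0.674 ± 0.00287 for 3R (SD, n = 2). In the combined table the ratio to the other autosomal arms was 0.879. The other arms were taken whole, and the differences were not tested, since 2 replicates are too few for an exact permutation test to pass a 5% threshold.

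In the replicates, the lower coverage of 3L went with fewer regions of nearly the same length. Density on 3L was 0.798 ± 0.00384 times that of the other autosomal arms (SD, n = 2). Median lengths were 1529 bp on 3L against 1561 bp on those arms in replicate 1, and 1559 against 1590 bp in replicate 2. In the combined table density was close, 0.966 times that of the other autosomal arms, and regions were shorter, with a median of 1593 bp on 3L against 1691 bp. Median scores were also close, 0.52 on 3L against 0.53 in replicate 1 and 0.55 against 0.57 in replicate 2, and the X had higher medians of 0.62 and 0.65. Long regions made up 3.58% of combined regions on 3L, against 5.45% on the other autosomal arms and 1.04% on the X.

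Coverage was uneven along the arm, and the same stretch was densest in every list. The 22.5 Mb was divided into 9 parts of 2.5 Mb, part 1 lying at the telomere. Part 3, from 5.0 to 7.5 Mb, had a coverage of 7.64% in replicate 1 and 9.06% in replicate 2, and of 41.2% in the combined table. The other 8 parts ranged from 3.83% to 5.47%, from 4.61% to 5.85% and from 24.4% to 31.7%, so part 3 lay above all of them. It held 112, 128 and 446 regions, and 31 of the 121 combined regions of 5 kb or more. Part 8, from 17.5 to 20.0 Mb, had the lowest replicate mean, 4.25 ± 0.555% (SD, n = 2), against 8.35 ± 1.00% (SD, n = 2) in part 3.

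**Figure D1:**
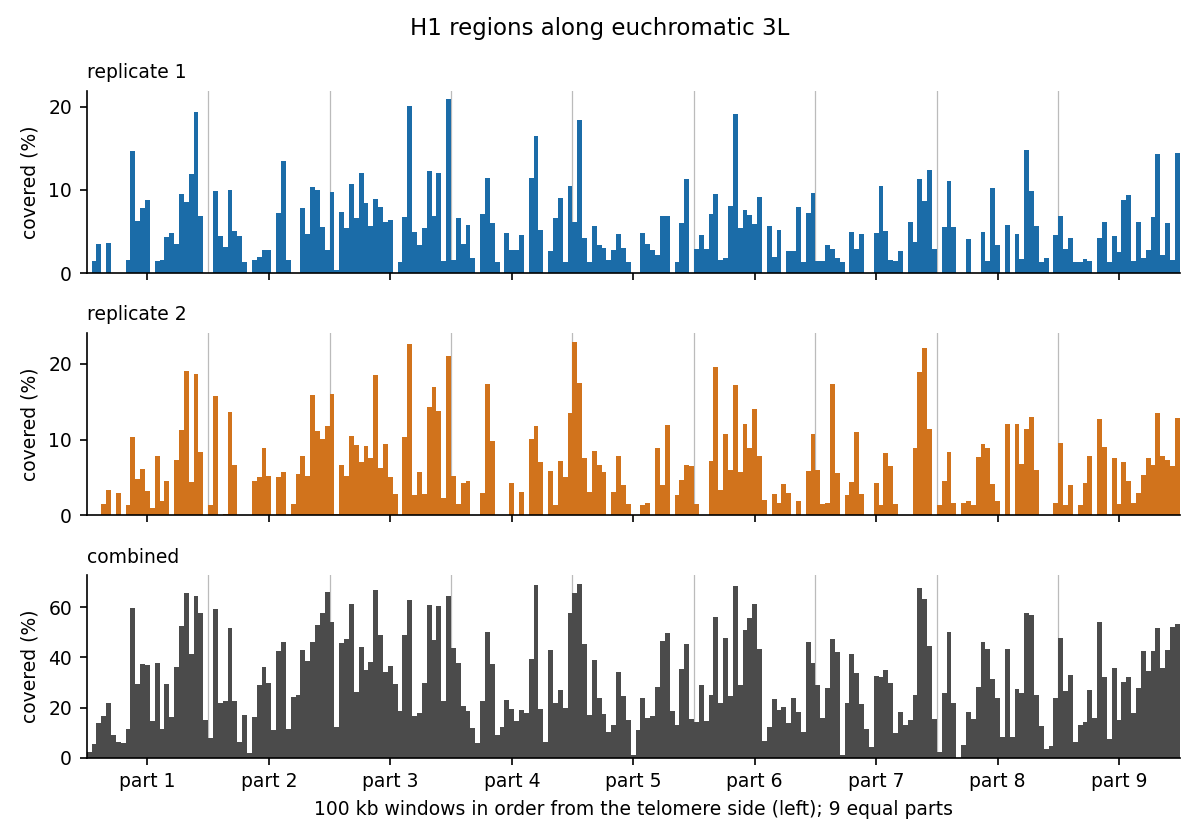
Share of each 100 kb window covered by H1 regions along euchromatic 3L, with 225 windows in order from the telomere side on the x axis and covered percent on the y axis, for replicate 1, replicate 2 and the combined table (y scales differ). Part 3 is the densest in each list, and 1 window in part 8 is empty in all lists.

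At the finer scale of 225 windows of 100 kb, most of the arm was thinly covered and a few windows were dense. The median window had a coverage of 4.20% in replicate 1 and 4.59% in replicate 2, against 27.0% in combined regions, and the highest windows reached 20.9%, 23.0% and 69.2%. The densest 22 windows held 28.8%, 30.2% and 20.5% of all covered length. Neighbouring windows were weakly alike, with Spearman's rho of 0.20, 0.28 and 0.37 between a window and the next, given as a description over windows of the same library.

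The densest window by replicate mean ran from 6600001 to 6700000, in part 3. Replicate 1 covered 20.1% of it, replicate 2 covered 22.6% and combined regions covered 62.7%, with 11, 11 and 17 regions. The next, from 7400001 to 7500000, was covered to 20.9%, 21.1% and 64.3%. Both replicates thus gave nearly the same coverage in the leading windows of part 3.

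Outside part 3, the window from 2200001 to 2300000 was covered to 19.4%, 18.6% and 64.4%. The window from 13300001 to 13400000 was covered to 19.1%, 17.2% and 68.3%, and that from 10100001 to 10200000 to 18.3%, 17.5% and 69.2%. In these 3 windows replicate 1 was slightly the higher. The other 5 of the 10 densest windows began at 17200001, 17100001, 10000001, 12900001 and 8200001, and replicate 2 was the higher in each, with 17.3% to 23.0% against 6.17% to 11.5% in replicate 1. Of the 11 windows that make up the densest 5% in each replicate, 4 were shared, those beginning at 2200001, 6600001, 7400001 and 10100001, and 3 of these were also among the densest 5% of the combined table.

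Dense stretches appeared in the combined table as chains of regions with short breaks. When regions less than 1 kb apart were joined, 3L held 2054 stretches with a median of 1995 bp, of which 128 reached 10 kb and together spanned 2.00 Mb, or 8.90% of the arm. The longest ran for 48.8 kb from 1973216 to 2021976 and joined 12 combined regions. Replicates 1 and 2 covered 16.6% and 26.5% of it, with 5 and 7 regions. The stretch from 9206364 to 9243570, 37.2 kb long, was covered to 38.4% and 15.2%, and that from 7432370 to 7469208, 36.8 kb long, to 38.1% and 37.5% with 8 regions in each replicate. The 10 longest stretches measured 27.3 kb or more, and each held regions of both replicates. Stretches this long meet replicate regions readily, and the share among shorter stretches was not taken. This is therefore no measure of replicate agreement.

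Single combined regions could also be long. The longest that overlapped both replicates ran from 5692540 to 5710388 in part 3, a length of 17849 bp. It scored 0.46, and 38.7% of it lay in 3 regions of replicate 1 and 23.6% in 2 of replicate 2. Next came 9209972 to 9225756, 15785 bp with a score of 0.45, covered to 32.9% and 21.1%. The region from 13839926 to 13852210 measured 12285 bp and was covered to 35.2% and 13.3%. In these 3 regions replicate 1 covered the larger share.

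The region from 7453456 to 7465682, 12227 bp long, was covered almost equally, to 52.4% with 4 regions and 50.7% with 3 regions. By contrast, 6621824 to 6632904 was covered to 29.2% and 55.6%, and 2024476 to 2035390 to 12.0% and 51.4%. The other 4 of the 10 longest that overlapped both replicates measured 9531 to 10041 bp. In none of the 10 did a replicate list the whole of the combined region, the highest share being 55.6%.

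The 10 combined regions with the highest scores among those overlapping both replicates had scores of 0.50 to 0.55, ratios of 1.41 to 1.46. The highest, from 13686888 to 13689078, measured 2191 bp and scored 0.55, with 0.57 in the replicate 1 region under it and 0.74 in that of replicate 2. Next was 22470648 to 22477664 near the limit, 7017 bp with 0.53 in the combined table, 0.65 in replicate 1 and 0.65 in replicate 2. The region from 4481844 to 4484492 scored 0.53, 0.61 and 0.67, and that from 7188186 to 7196358 scored 0.52, 0.64 and 0.63. The 0.63 is the highest of 3 replicate 2 regions there. Where a replicate had several regions under a combined region, the highest score was taken. These 4 combined regions scored higher in each replicate than in the combined table, and so did 8 of the 10. The exceptions were 21696630 to 21699242, with 0.50 in the combined table, 0.51 in replicate 1 and 0.47 in replicate 2, and 4662582 to 4665186, with 0.50, 0.64 and 0.45. Replicate regions of 3L scored higher in general, with medians of 0.52 and 0.55 against 0.38 for combined regions. The order of the lists in these 10 is therefore no separate result.

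Among all combined regions of 3L, the highest scores lay in short regions elsewhere. This comparison was chosen after the values were seen. The 11 regions with scores of 0.6 or more measured 1001 to 1465 bp, with a median of 1061 bp, and 11 of 11 overlapped neither replicate. Of all combined regions of 3L, 67.4% overlapped neither, and of those of 1001 to 1061 bp, 96.2% did. The first, from 28152 to 29254 and the member nearest the telomere, scored 2.83, a ratio of 7.13. It was followed by 18510816 to 18511852 with 1.63, 7662056 to 7663056 with 1.46, 13518264 to 13519264 with 1.37 and 5455386 to 5456386 with 1.20. The highest score of a combined region found in both replicates was 0.55, so the top of the score range held short regions alone.

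Spacing was broad in each replicate and tight in the combined table. Gaps to the next region had a median of 13.9 kb in replicate 1 and 9.48 kb in replicate 2, and of 1.53 kb between combined regions, and the middle 50% of gaps ran from 4.41 to 40.4 kb, from 2.91 to 28.7 kb and from 0.477 to 4.26 kb. Gaps under 1 kb made up 8.12%, 10.8% and 39.3% of all gaps. The SD of the gaps was 1.50, 1.81 and 2.10 times their mean, so short gaps and very long ones occurred on the same arm. Against the other autosomal arms, median gaps on 3L were wider in every list: 13.9 against 9.78 kb, 9.48 against 7.47 kb and 1.53 against 1.35 kb. No test of these differences was made, for the same reason as above.

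**Figure D2:**
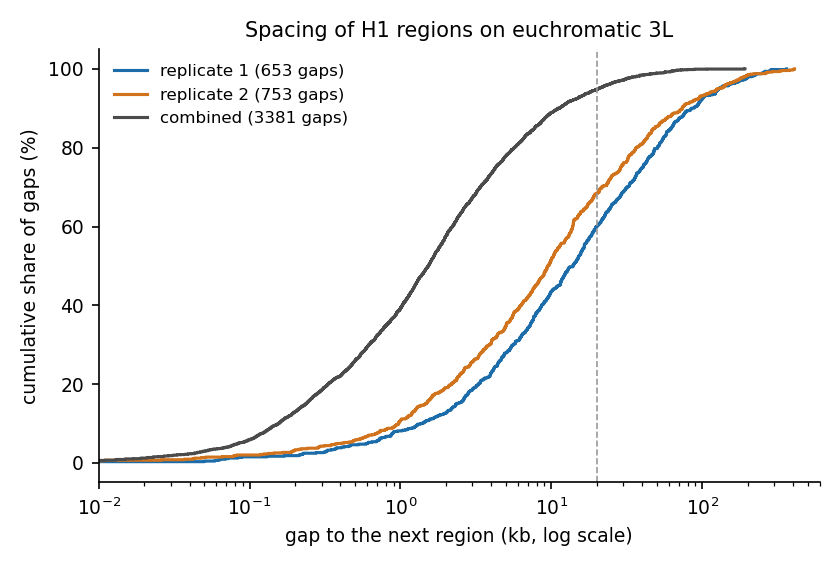
Cumulative share of gaps between neighbouring H1 regions of euchromatic 3L (y axis, percent) by gap size (x axis, kb, log scale, cut at 0.01 kb), for replicate 1, replicate 2 and the combined table, with a dashed line at 20 kb. At 20 kb or more lie 40.0%, 31.6% and 5.18% of the gaps.

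Crowded combined regions were longer and more often found in the replicates than isolated ones. Of the 3382 combined regions, 2038 had a neighbour within 1 kb, with a median length of 1720 bp, and 8.54% of them overlapped both replicates. The 1065 whose nearest neighbour was 1 to 5 kb away had a median of 1503 bp, and 3.29% overlapped both. The 279 at 5 kb or more from any neighbour had a median of 1311 bp, and 1 of them, 0.358%, overlapped both. Longer regions meet other regions more readily, and the part of length in this order was not tested. In the replicates themselves the medians of these classes were 1547, 1577 and 1493 bp in replicate 1 and 1567, 1573 and 1547 bp in replicate 2, a much smaller range.

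Long stretches without a combined region made up a sizeable part of the arm. Gaps of 20 kb or more numbered 175, with a median of 30.8 kb, and summed to 6.63 Mb, or 29.5% of euchromatic 3L; 36 of them reached 50 kb. Of the 175, 148 held no region of either replicate, 15 held 1 region each of replicate 1 and 12 held 1 each of replicate 2. They were present in every part, from 14 in part 3 to 25 in part 5. Per Mb there were 7.78 on 3L, against 6.80 on the other autosomal arms and 9.90 on the X.

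The longest empty stretch ran from 17883911 to 18075743, in part 8, and measured 191.8 kb. It was empty in all 3 lists: replicate 1 had no region from 17830585 to 18112903 (282 kb) and replicate 2 none from 17816927 to 18081982 (265 kb). Its window from 17900001 to 18000000 was the only window of 3L with no combined region. On 2L, 2R, 3R and the X the longest such stretches measured 181, 136, 141 and 226 kb.

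The next combined gaps were shorter. The gap from 15491083 to 15597851 measured 106.8 kb and held 1 region of replicate 1, while those from 11215995 to 11304959 (89.0 kb) and from 16129039 to 16217417 (88.4 kb) held no region in either replicate. Of the 10 longest combined gaps, 71.5 to 191.8 kb, 7 were free of regions in both replicates. Since nearly all replicate regions overlap a combined region, combined gaps hold few of them by construction. The longest gaps of single replicates were far longer: replicate 1 had none from 486139 to 848240 (362 kb), where replicate 2 listed 3 and the combined table listed 24, and replicate 2 had none from 19566947 to 19975264 (408 kb), where replicate 1 listed 2 and the combined table listed 31. Both of these stretches, empty in a single replicate, thus held combined regions.

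Of the 225 windows, 36 held no coverage in replicate 1, 48 none in replicate 2 and 21 none in either. Those 21 windows were covered to 0 to 18.5% in the combined table, with a median of 8.40%, against 27.0% over all windows. They included the first window at the telomere and 2 pairs of neighbours, from 11200001 to 11400000 and from 16000001 to 16200000, and none lay in parts 3 and 6. Windows empty in both replicates made up 9.33% of 3L, against 5.65% of 2L, 11.8% of 2R, 5.02% of 3R and 17.9% of the X.

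Most regions of a replicate had no partner in the other on 3L. Counting any shared base, 192 of the 654 regions found in replicate 1 had a partner in replicate 2, or 29.4% (95% Wilson interval 26.0 to 33.0%), against 31.5% over all sequences. In the other direction 192 of 754 had a partner, or 25.5% (22.5 to 28.7%), against 25.3%. Both shares were near those of the whole series, which pools unlike arms: the other autosomal arms gave 33.9% (32.1 to 35.7%) and 29.3% (27.7 to 30.9%), and the X 14.9% and 13.9%. Where overlap of 50% of both regions was required, 16.8% and 14.6% of the regions of 3L had a partner. The intervals cover the counting of regions only.

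By length, 207 kb were covered in both replicates, 9.56% of the 2163 kb covered in either. That is 0.919% of the arm, where the product of the 2 covered shares is 0.275%, a ratio of 3.33. The same ratio was 3.01 on the other autosomal arms, whose share in both was 11.4%, and 3.20 on the X, at 4.44%. The lower share on 3L than on the other autosomal arms thus stood beside lower coverage, with a ratio to the product that was no smaller; a test over 2 libraries is not possible.

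Where regions of the replicates met, their scores and lengths were only weakly related. The overlaps formed 200 pairs, with a median overlap of 1203 bp, or 79.6% of the shorter region. Midpoints differed by a median of 581 bp, and 47.0% of pairs lay within 500 bp, values that are bounded because pairs were taken for overlapping. The midpoint of replicate 2 was nearer the centromere in 104 of the 200 pairs, so neither replicate was shifted to a side. Over the pairs, Spearman's rho between the replicates was 0.16 for score and 0.05 for length, weak values given as descriptions over regions of the same libraries.

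Regions without a partner lay at varied distances from the other replicate's regions, and distances from arbitrary positions were not taken for comparison. The nearest region of the other replicate was at a median of 6.60 kb from the 462 such regions of replicate 1 and 6.18 kb from the 562 of replicate 2. Within 5 kb lay 42.9% and 42.7% of them, and 7.14% and 4.45% were more than 50 kb away. Length differed somewhat, with medians of 1610 bp with a partner and 1486 bp without in replicate 1, and 1636 and 1541 bp in replicate 2, while the median score was 0.52 in both classes of replicate 1, and 0.56 with a partner and 0.55 without in replicate 2.

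The share with a partner was higher among longer regions of replicate 1 and had no steady order by score in either replicate. In replicate 1 it was 22.3% in the shortest 25% of regions (95% Wilson interval 16.6 to 29.2%) and 41.5% in the longest 25% (34.2 to 49.1%). In replicate 2 it was 18.4% (13.6 to 24.5%) among the shortest 25% and 28.6% (22.6 to 35.4%) among the longest, intervals that overlap. By score, 4 equal classes of replicate 1 gave 23.2%, 35.6%, 22.0% and 36.8% from low to high, and those of replicate 2 gave 23.3%, 26.6%, 27.1% and 24.9%.

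The share of regions with a partner was higher in the distal than in the proximal parts of the arm. In parts 1 to 4, from 32.3% to 44.6% of replicate 1 regions had a partner, and in parts 5 to 9 from 15.5% to 29.1%. For replicate 2 the ranges were 25.3% to 39.7% and 11.6% to 21.6%. The ranges of the distal and proximal parts did not overlap for either replicate. The division was chosen after the values were seen, so this lack of overlap is no separate result. The closest parts rested on few regions. For replicate 1 these were 21 of 65 in part 2 against 16 of 55 in part 8, and for replicate 2, 21 of 83 in part 2 against 19 of 88 in part 6.

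Part 3 had the largest share of length in both replicates, 15.4% of that covered in either, and part 9 the smallest, 5.24%. Relative to the product of the covered shares the order changed, with 4.60 in part 4 as the highest, 3.88 in part 8, 3.58, 3.53 and 3.22 in parts 2, 1 and 3, and 1.96 in part 9 as the lowest. On that scale the distal and proximal parts overlapped through part 8 alone. Parts 5, 6 and 7 had 3.17, 2.78 and 2.37, so they and part 9 lay below every distal part. Part 9 was not sparsely covered: replicate 1 covered 4.56%, replicate 2 covered 5.72%, and combined regions covered 31.7%, below part 3 alone. Its combined and replicate 1 regions had the lowest median scores of the 9 parts, 0.36 and 0.50, while that of replicate 2 was 0.55, within the 0.53 to 0.57 of the other parts. No part was set against another by a test.

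**Figure D3:**
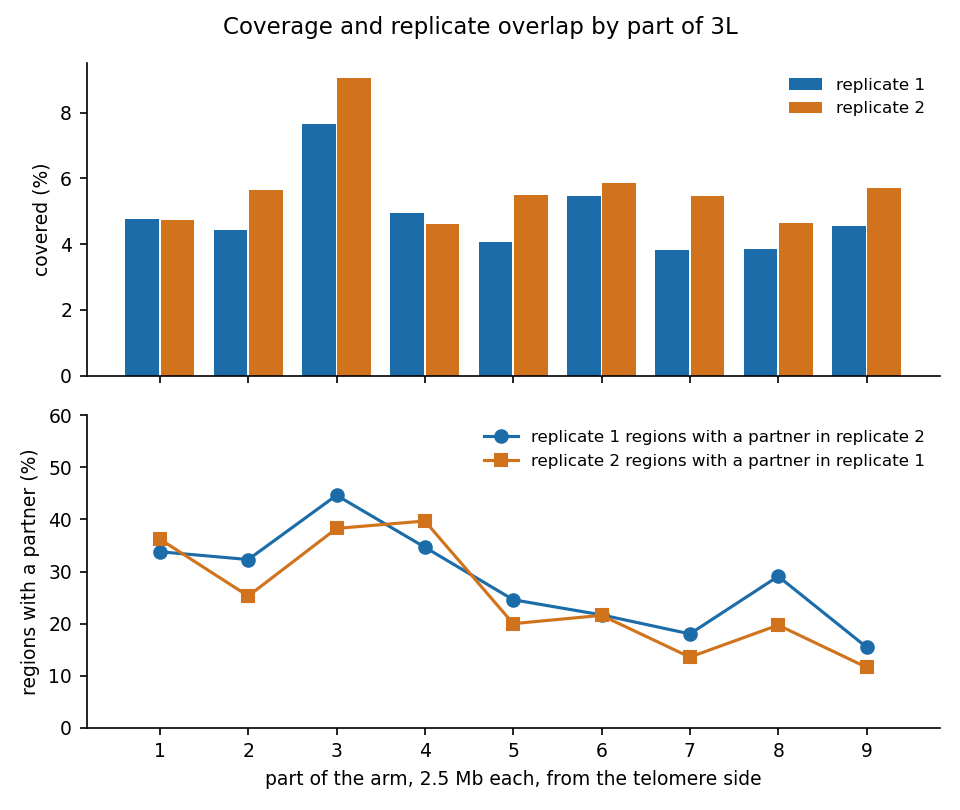
Upper panel, percent of each 2.5 Mb part of euchromatic 3L covered in replicate 1 and replicate 2; lower panel, percent of the regions of each replicate in that part that overlap a region of the other by 1 bp or more; parts run from the telomere side on the x axis. Coverage peaks in part 3, at 7.64% and 9.06%, and the share with a partner is lowest in part 9, at 15.5% and 11.6%.

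Window by window, coverage in the replicates was related but not tightly. Spearman's rho was 0.68 and Pearson's r 0.69 over the 225 windows of 3L, compared with rho of 0.64 on 2L, 0.72 on 2R, 0.74 on 3R and 0.52 on the X; windows of 1 library share its depth, so these are descriptions. Replicate 2 was the higher in 112 windows, replicate 1 in 92, and 21 were empty in both. The widest difference was in the window from 10000001 to 10100000, where 3 regions of replicate 1 covered 6.17% and 12 of replicate 2 covered 23.0%. The window from 15300001 to 15400000 had 2.85% and 17.3%. In the other direction, that from 16300001 to 16400000 had 10.4% and 1.41%. No window among the densest 5% of a replicate was empty in the other.

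**Figure D4:**
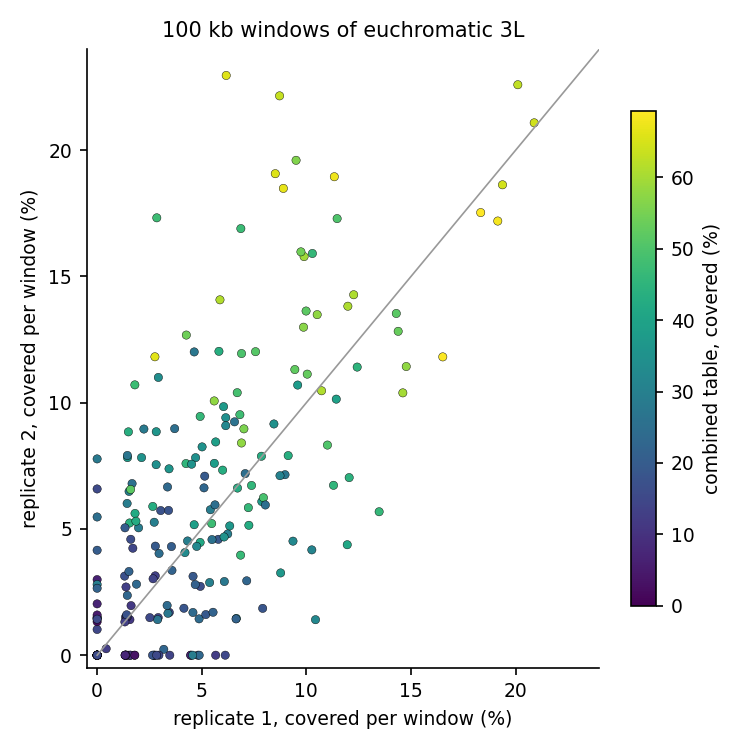
Covered percent of each of the 225 windows of 100 kb of euchromatic 3L in replicate 1 (x axis) and replicate 2 (y axis), coloured by the covered percent in the combined table; the line marks equal coverage. The 5 densest windows by replicate mean lie near the line, between 17.2% and 22.6% in each replicate, and the widest departure is a window with 6.17% in replicate 1 and 23.0% in replicate 2.

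Nearly every replicate region of 3L overlapped a combined region by at least 1 bp, with or without a partner. This held for 644 of 654 in replicate 1, 98.5% against 98.6% over all sequences, and for 745 of 754 in replicate 2, 98.8% against 97.9%. Among regions without a partner the shares were 97.8% and 98.4%, and all 192 with a partner did so in each replicate. No source used here says how the combined table was made, so this overlap is not taken as a separate measurement.

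Seen from the combined table, most regions had no replicate counterpart. Of the 3382 combined regions, 607 overlapped replicate 1, or 17.9% against 18.4% over all sequences, and 706 overlapped replicate 2, or 20.9% against 22.7%. Both replicates were overlapped by 210 (6.21% against 6.71%), 1 of them by 893 (26.4% against 27.6%) and neither by 2279 (67.4% against 65.7%). The share in both depended on the rule: it was 1.57% with an overlap of 50% of both regions, 3.35% with scores at or above each list's median and 10.7% with regions under 1 kb apart joined. On the other autosomal arms the shares were 8.34% for both and 62.8% for neither, and on the X 2.59% and 74.3%.

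Combined regions that overlapped both replicates by 1 bp or more were the longest by median. Their median length was 3679 bp, compared with 2067 bp for those in replicate 1 alone, 2197 bp for those in replicate 2 alone and 1351 bp for those in neither. They made up 13.8% of the summed length of combined regions, while those in neither made up 53.0%. Median scores were 0.42 for both, 0.38 for each replicate alone and 0.37 for neither, ratios of 1.34, 1.30, 1.31 and 1.29. Of the longest 10% of combined regions, 34.5% overlapped both replicates and 17.1% neither, and of the shortest 10%, 1001 to 1061 bp, 0 of 339 overlapped both and 96.2% overlapped neither. The shortest 10% lies below the shortest replicate region, so the lists were not called alike in that range. Longer regions also meet replicate regions more readily under a 1 bp rule, and how far this sets the order of lengths was not tested.

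Of the 121 combined regions of 5 kb or more, 89 overlapped replicate 1 (73.6%, against 17.9% of all combined regions of 3L). Replicate 2 was overlapped by 89 (73.6% against 20.9%) and both replicates by 65 (53.7% against 6.21%). Neither was overlapped by 8 of the 121, where the share over all combined regions of 3L was 67.4%. Longer regions meet replicate regions more readily under a 1 bp rule. Replicates 1 and 2 covered a median of 26.4% and 27.4% of such a region, and 27 and 34 of them held more than 1 region of that replicate. Their median score was 0.41, with a range of 0.32 to 0.53.

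**Figure D5:**
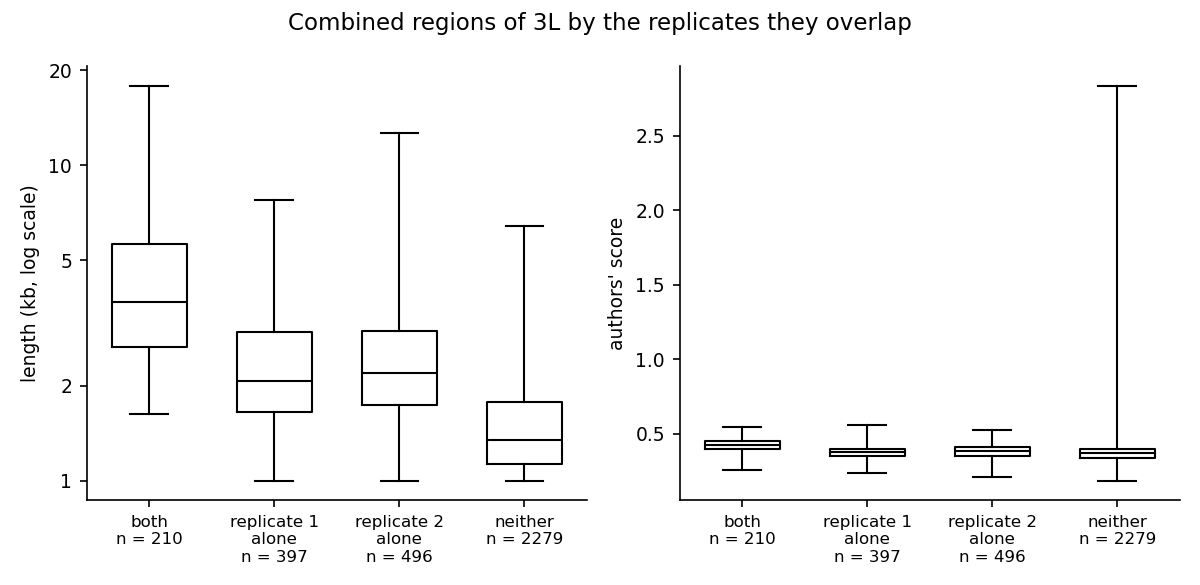
Length (left y axis, kb, log scale) and authors' score (right y axis) of the combined regions of euchromatic 3L by the replicates they overlap (x axis, with n); boxes span the middle 50% with the median as a line, and whiskers reach the lowest and highest values. Median length is 3679 bp for regions in both replicates and 1351 bp for those in neither, and the highest scores, up to 2.83, lie among those in neither.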

How the data were processed

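Enriched regions from H1 ChIP-seq were analysed as the authors deposited them, with start, end and a score per region. The score is the authors' own value, and its scale is not stated per the file headers. Taking 2 to the power of the score, relative to 1 of the 40 highest scores of the list, gave a quotient of integers (denominators to 5000, tolerance 1e-11, relative) for 654 of 654, 754 of 754 and 3332 of 3382 members, and for 0 after a shift of 0.01; scores were read as log2 ratios. Positions are on FlyBase Release 5 per the file headers. The submitters' processing notes name Bowtie 0.12.7 and give it no role. How regions were called, at which threshold, with or without the input, and how replicates were joined is not given in the sources used here; region counts depend on it.

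Coverage was taken over the sequence below the limit, uncorrected for copy number or for sequence that reads cannot reach. Shares have 95% Wilson intervals. Code was tested on simulated regions. The members, lists and settings were chosen with earlier results of these data known. Regions named were the 10 longest and the 10 highest-scoring combined regions overlapping both replicates, the 10 longest combined gaps, the 10 densest windows and windows without a combined region, and the rows on each side of the limit; other examples were picked after seeing values. No test was made: 2 replicates form 1 group. Gene features were planned and not analysed here, for lack of a Release 5 annotation, and the named stretches carry no sequence for the same reason. Tools were matplotlib 3.10.9, scipy 1.17.1, pandas 2.3.3 and numpy 2.4.6 under Python 3.11.15.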

Additional observations from a re-analysis of the deposited data

How the results depend on the processing

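Of 67 values from 11 results under 10 alternatives, 32 stayed within their error or within 1.5 times for counts, and 35 moved. In the order score at or above the list median, then length of at least 1500 bp, mean coverage was 2.25% and 3.32%, the mean number of regions 274 and 388.5, and the ratio of 3L to the other autosomal arms 0.653 and 0.718, still below 1. Fewer regions enter under both, which lowers coverage by construction. Length in both replicates was 4.49% and 6.83%, replicate 1 regions with a partner 13.1% and 23.5%, replicate 2 regions 12.2% and 18.8%, combined regions in both 3.35% and 5.27%, the median combined gap 5657 and 2825 bp, and rho over windows 0.51 and 0.60. Score at or above the median also gave 73.2% of combined regions in neither and 279 gaps of 20 kb or more. Overlap of 50% of both regions left 16.8% and 14.6% of replicate 1 and 2 regions with a partner, 1.57% of combined regions in both and 76.7% in neither. Joining regions under 1000 bp apart gave 9.77% by length, 10.7% in both, 61.4% in neither, a median gap of 3327 bp and rho of 0.67. The whole 3L sequence gave a ratio of 0.785 (0.756 and 0.813 in replicates 1 and 2), 9.41% by length and rho of 0.65, and a limit of 20 Mb gave 10.1% by length. Spearman's correlation between the replicates was 0.58 over windows of 50 kb and 0.73 over windows of 250 kb. The cause was otherwise not tested. With a single replicate left out, coverage ran from 4.84% to 5.69%, 654 to 754 regions and ratios from 0.768 to 0.773. With 2 replicates, either value always lies within 1 SD of their mean. For coverage and the ratio these values therefore could not move, though they are counted among the 32. Overlaps need both replicates and have no such value. Shares by length and rho have no replicate error, so any move is listed. No paired analysis was possible because the lists come from ChIP libraries of a single group; ratios between arms are taken within each library. Unknown depth limits every comparison of region numbers between lists.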
